A study of Mus musculus with 11 samples.

Results

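Open chromatin of alveolar macrophages from lungs carrying KP tumours for 30 days was set against that of macrophages from naive lungs. Both groups were C57BL/6 mice. The naive group had 4 samples, and the day 30 group had 3 samples from mice that had received KP cells through the tail vein, a lung adenocarcinoma line that seeds tumour foci in the lung. Both were sorted as lung-resident macrophages. ATAC-seq was used, an assay where a transposase cuts and tags accessible DNA for sequencing. Age, sex, the sort markers and any mock injection of naive mice are not given in the sources used here, and some mice may have received KP cells carrying GFP, since the labels name both lines without saying which sample had which. The authors deposited 1 peak list per group: 14731 peaks for naive macrophages and 3352 for day 30 macrophages, together 18083 of the 28944 peaks in the study's 3 lists, the remaining list being that of a day 15 group. Nothing says whether reads of the samples were pooled before peaks were called. With 1 list per group no difference below has a replicate check or a p-value, and every 95% interval is a Wilson interval that covers counting over peaks or genes only. In bulk material, fewer cells with a region open and less accessibility per cell cannot be told apart.

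Alveolar macrophages live in the air spaces, clear surfactant and inhaled particles, and depend on GM-CSF signalling and the nuclear receptor PPAR-gamma for their identity. Promoters of widely used genes are usually rich in CpG dinucleotides and open in most cell types, while many cell-type genes have CpG-poor promoters and depend on enhancers away from the start. A peak in an ATAC-seq list marks a place where insertions exceeded the local background, so its absence from a list is the absence of a call and not proof of closed chromatin.

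The 200 bases upstream of 8 gene starts are shown for macrophage, chaperone and clock genes that differed in CpG content and in whether their start kept a peak. Naive strength differed among them too. They come from RefSeq on GRCm38.p6, the assembly also called mm10, and run 5′ to 3′ on the gene's own strand, with every CG in capitals. The first 3 belong to macrophage genes whose start had a naive peak and none at day 30: Ear2, an eosinophil-type ribonuclease gene of alveolar macrophages (chr14:44102454-44102653, plus strand), Fcgr1, the high-affinity IgG receptor (chr3:96293970-96294169, minus strand), and Lyz2, lysozyme M (chr10:117282273-117282472, minus strand). Their naive peaks had 11, 10 and 13 tags at the summit, and the 200 bases held 0, 0 and 1 CG.
Ear2: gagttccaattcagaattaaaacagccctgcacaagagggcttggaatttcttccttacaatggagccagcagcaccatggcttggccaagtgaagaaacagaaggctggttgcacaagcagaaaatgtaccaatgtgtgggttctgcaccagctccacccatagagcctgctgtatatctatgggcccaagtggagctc
Fcgr1: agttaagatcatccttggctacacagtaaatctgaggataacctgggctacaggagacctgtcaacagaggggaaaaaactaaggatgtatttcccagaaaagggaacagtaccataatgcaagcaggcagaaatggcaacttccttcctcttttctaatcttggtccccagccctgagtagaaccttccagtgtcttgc
Lyz2: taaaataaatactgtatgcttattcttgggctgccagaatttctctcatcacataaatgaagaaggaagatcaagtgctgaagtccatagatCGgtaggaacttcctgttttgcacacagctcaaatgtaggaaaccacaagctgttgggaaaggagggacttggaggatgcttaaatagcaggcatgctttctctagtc
The next 3 belong to genes whose start had a peak in both lists: Cebpa, a transcription factor of the myeloid lineage (chr7:35119093-35119292, plus strand), Hsp90b1, a chaperone of the endoplasmic reticulum (chr10:86705445-86705644, minus strand), and Cry1, a repressor of the circadian clock (chr10:85185055-85185254, minus strand). These held 15, 22 and 27 CG, and their peaks went from 38 to 22 tags, from 59 to 29 tags and from 37 to 28 tags between the naive and the day 30 list.
Cebpa: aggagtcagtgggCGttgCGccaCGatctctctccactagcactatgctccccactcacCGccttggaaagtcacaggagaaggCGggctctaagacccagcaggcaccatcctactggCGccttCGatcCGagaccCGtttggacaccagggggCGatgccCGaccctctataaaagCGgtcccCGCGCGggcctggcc
Hsp90b1: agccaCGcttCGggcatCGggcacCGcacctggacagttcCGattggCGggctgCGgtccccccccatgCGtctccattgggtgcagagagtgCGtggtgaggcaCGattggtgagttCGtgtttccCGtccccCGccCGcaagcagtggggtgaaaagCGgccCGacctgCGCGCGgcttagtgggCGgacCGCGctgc
Cry1: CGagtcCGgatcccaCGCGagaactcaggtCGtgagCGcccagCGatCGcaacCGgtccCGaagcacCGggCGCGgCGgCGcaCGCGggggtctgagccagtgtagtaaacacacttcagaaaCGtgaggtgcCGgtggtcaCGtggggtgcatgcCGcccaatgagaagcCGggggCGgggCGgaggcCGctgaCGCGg
The last 2 go the other way: the macrophage sialomucin gene Cd68 (chr11:69666171-69666370, minus strand) held 4 CG and had a peak in both lists, with 21 and 13 tags, while Cebpb, a second myeloid transcription factor gene (chr2:167688715-167688914, plus strand), held 34 CG and had 29 tags in the naive list and no peak at day 30. All 8 were chosen after their values were seen.
Cd68: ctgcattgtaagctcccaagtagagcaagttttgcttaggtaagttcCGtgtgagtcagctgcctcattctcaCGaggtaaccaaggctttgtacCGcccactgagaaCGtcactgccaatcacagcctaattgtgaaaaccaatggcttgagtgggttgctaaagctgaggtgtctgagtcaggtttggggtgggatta
Cebpb: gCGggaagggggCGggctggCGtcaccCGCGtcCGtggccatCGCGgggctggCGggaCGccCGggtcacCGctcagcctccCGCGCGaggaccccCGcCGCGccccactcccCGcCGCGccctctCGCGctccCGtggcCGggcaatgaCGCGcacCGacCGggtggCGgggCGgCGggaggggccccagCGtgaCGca

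The day 30 list was close to a subset of the naive one, so the comparison is about which naive peaks were still called. Of 3352 day 30 peaks, 3235 shared at least 1 bp with a naive peak (96.5%, interval 95.8 to 97.1), and 3193 of 14731 naive peaks overlapped a day 30 peak (21.7%, interval 21.0 to 22.3). Of the 11538 naive peaks without a day 30 peak, 6364 (55.2%) overlapped a peak of the day 15 list, against 3079 of the 3193 that were kept (96.4%). The recovered genome-wide background amounted to 39.2 tags for every 10 kb of the naive libraries and 82.2 at day 30, which is 2.1 times as deep in tags as the peak caller counted them. Kept naive peaks were wider and higher than those not found at day 30, with a median width of 542 bp against 307 bp and a median summit of 27 tags against 14. The 117 day 30 peaks with no naive counterpart were narrow and low, with a median width of 221 bp and 15 tags, and 46 of them lay within 1 kb of a naive peak.

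Cutting both lists to 3352 peaks, ranked by −log10 p within each list, left a comparison free of list length. In these equal lists 2072 day 30 peaks overlapped a naive peak (61.8%, interval 60.2 to 63.4) and 2019 naive peaks overlapped a day 30 peak (60.2%, interval 58.6 to 61.9). The 1280 day 30 peaks outside the shortened naive list were mostly present lower down in the full one, where 117 day 30 peaks had no partner at all. Among the 2072 shared peaks the ranks in the lists were related with a Spearman rho of 0.42, given as a description because peaks of 1 list share their library and background. The limit fell among ties: the naive peaks ranked 3351 to 3354, at Heca, Itpr2, Klhl42 and Vps35, all had 21 tags and a −log10 p of 18.7, and the first 2 were inside.

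At nearly every shared place the summit stood less far above background at day 30. Enrichment is used here for summit tags divided by the genome-wide background of the same list, which takes depth into account. Over the 3260 overlapping pairs of peaks its median was 34.4 in the naive list and 10.3 at day 30. The median ratio within a pair was 0.298 (interquartile range 0.239 to 0.377), and 3252 of the 3260 pairs (99.8%) were lower at day 30. The ratio was 0.290 at gene boundaries, 0.324 in gene bodies and 0.325 between genes. In the strongest 10% of the naive list it was 0.231, with all 1213 pairs lower. That group was chosen by naive −log10 p, which rises with the naive summit tags that the ratio divides by. Its lower ratio is therefore partly set by the choice and is not a separate result. Lower enrichment was found in every class of region, and the share of reads that fell outside open chromatin was not measured separately.

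**Figure D1:**
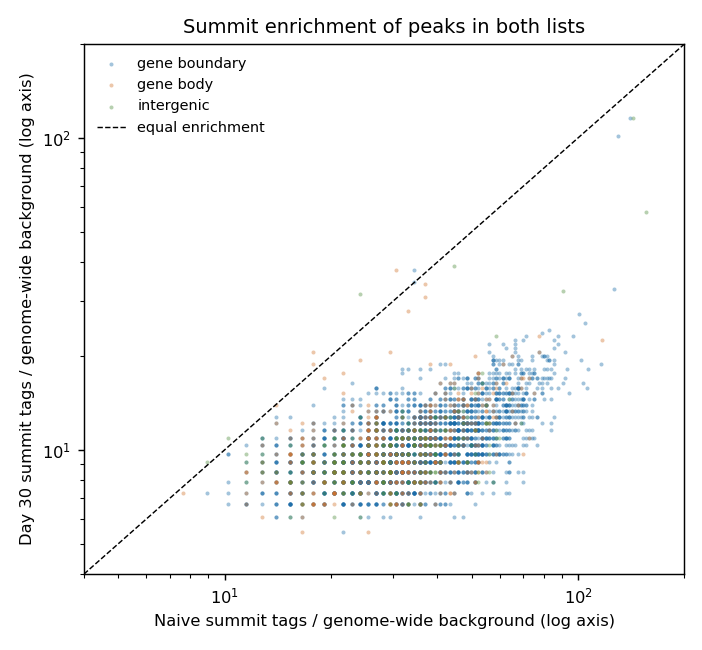
Summit tags divided by the genome-wide background for overlapping pairs of peaks, naive on the horizontal and day 30 on the vertical log axis. Each pair is 1 point, pairs on mitochondrial DNA are not drawn, and a dashed line marks equal enrichment. All but 8 points lie below the line. Over all 3260 pairs, mitochondrial ones included, the median is 34.4 on the naive axis and 10.3 on the day 30 axis.

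Gene boundaries were kept more often than places away from them, also among naive peaks of like strength. A gene boundary is the stretch up to 1000 bp on each side of a gene's ends. Boundaries held 53.2% of naive peaks, 77.0% of the kept ones and 46.6% of those without a day 30 peak. Of boundary peaks 31.4% were kept (interval 30.3 to 32.4), of gene body peaks 11.2% (10.4 to 12.2) and of intergenic peaks 9.43% (8.28 to 10.7). Some gene body peaks lay at a listed start inside a longer gene, and without those the gene body share was 9.29% (8.43 to 10.2). Naive strength differed between these classes, with median summits of 18, 14 and 13 tags. Naive peaks were divided by −log10 p into 10 groups of equal size. Within the strongest group 82.7% of boundary peaks were kept against 68.1% of gene body and 69.4% of intergenic peaks. Strength was not quite alike there, with median summits of 39, 36 and 36 tags. In a weaker group, in which all classes had a median of 21 tags, the shares were 37.7%, 18.4% and 17.4%. Boundary peaks were wider in both, with median widths of 599, 545 and 530 bp in the strongest group and 458, 391 and 381 bp in the weaker one. Width was not matched. The boundary share was the higher one in 10 of 10 groups against either class, and the intervals did not overlap in 8 of 10 for each. The mean difference between boundary and gene body over the groups was 8.87 percentage points (interval 7.55 to 10.2). The equal lists as wholes had like shares of boundary peaks, 74.2% (interval 72.7 to 75.6) in the naive and 76.0% (interval 74.5 to 77.4) in the day 30 list, while the 1333 naive peaks of the equal list without a day 30 partner had 64.1% (interval 61.5 to 66.6).

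**Figure D2:**
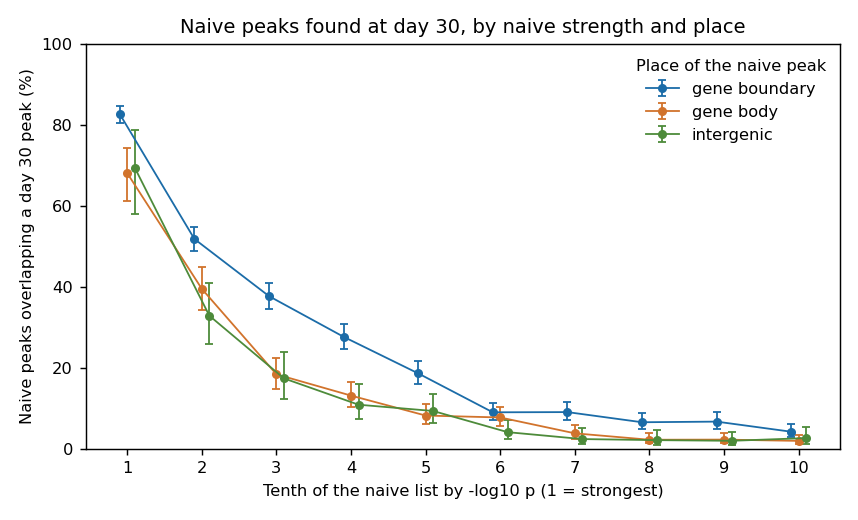
Share of naive peaks that overlapped a day 30 peak, for 10 equal groups of the naive list from strongest to weakest, with separate lines for gene boundary, gene body and intergenic peaks and bars for the 95% Wilson interval. All 3 lines fall steeply, from 82.7%, 68.1% and 69.4% in the first group, and the boundary line is above the others in all 10.

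Distance to a listed gene start gave the same order. Naive peaks with their summit within 1000 bp of a start were kept in 2103 of 6291 cases (33.4%, interval 32.3 to 34.6), and those over 10 kb away in 817 of 6375 (12.8%, interval 12.0 to 13.7). In the equal lists the shares were 66.5% (interval 64.5 to 68.5) and 48.5% (interval 45.3 to 51.7). Summits up to 250 bp upstream of the start were kept in 36.5% of cases and those up to 250 bp downstream in 27.9%, but in the equal lists in 65.8% (interval 63.4 to 68.2) and 63.3% (interval 58.3 to 68.1), which overlap. Between 1 and 10 kb the shares were lowest, at 10.4% upstream and 9.08% downstream. Peaks on chromosome X were kept less often than autosomal ones, 37 of 330 (11.2%, interval 8.24 to 15.1) against 21.9%. The X share was below the autosomes in 10 of 10 strength groups, with 55.6% against 80.6% in the strongest. Median summits there were 31 and 38 tags, so strength was not quite alike. X peaks were few in each group, and in the weakest 0 of 22 were kept against 3.03% of autosomal ones.

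Several genes with many naive peaks were left with few or none, and they were chosen after their values were seen. Septin9, a cytoskeletal filament gene, was the nearest gene within 50 kb of 10 naive peaks and of 0 day 30 peaks. Runx1, a transcription factor of blood cell lineages, went from 9 to 0, and B4galt5, a glycosyltransferase gene, from 7 to 0. Pfkfb3, a regulator of glycolysis, went from 10 to 1, Litaf, which is induced by lipopolysaccharide, from 8 to 1, and Bhlhe40, a transcription factor that supports alveolar macrophage self-renewal, from 7 to 1. Of the 1634 genes with naive peaks both at a boundary and farther away, 917 kept none, 484 kept only boundary peaks, 160 only the others and 73 kept both. In the 153 genes with 5 or more naive peaks 58.2% kept at least 1, yet 14.8% of their peaks were kept, while genes with a single naive peak kept it in 29.4% of cases. Region class differed between these: 657 of 862 peaks of the former lay away from boundaries against 1367 of 6226 of the latter, and such peaks were kept alike, in 12.3% and 12.0% of cases.

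Over 21887 protein-coding genes, 7594 carried a boundary peak in naive macrophages and 2804 at day 30. A gene is called kept when it had one in both, lost when only in the naive list, and gained when only at day 30. Kept genes numbered 2769, which is 36.5% of those with a naive boundary peak, and 4825 were lost. Gained genes numbered 35, or 0.245% of the 14293 without a naive one. In the equal lists 1899 genes were kept (67.9%), 897 were lost and 905 were gained (4.74% of 19091). Of these 905, 870 had one in the full naive list. Being kept followed naive strength: 70.4% in the strongest of 3 equal groups by −log10 p (median 32 tags), 30.9% in the middle group (19 tags) and 8.02% in the weakest (12 tags). Shares of the gene lists below are read against 36.5% and against these groups, and the lists were not tested. Neighbouring genes can share a boundary peak, which then counts for each of them.

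Genes of macrophage identity were mostly lost, but most of their naive peaks were low, and low peaks were mostly lost over all genes. Of 30 alveolar macrophage markers 15 had a naive boundary peak, and 2 were kept (13.3%, interval 3.74 to 37.9). Those kept were Bhlhe40, from 32 to 16 tags, and Perp, a membrane protein gene, at 12 tags in both lists. Equal tags mean a lower enrichment in the deeper day 30 list. Lost were Csf2ra and Csf2rb, the chains of the GM-CSF receptor, with 24 and 13 naive tags. Also lost were Pparg, the gene for PPAR-gamma, with 9 tags, and Cebpb, with 29. Lost genes of lipid handling and surface recognition in this list were Lpl with 14 tags, Olr1 with 18, Cidec with 15, Fabp5 with 13 and Itgax, which encodes CD11c, with 8. None of the 15 stood in the strongest group, 6 stood in the middle one, of which 1 was kept, and 9 in the weakest, of which 1 was kept. Over all genes 30.9% of the middle and 8.02% of the weakest group were kept. For so few genes the alveolar markers were thus near the shares at like strength. Of 24 general macrophage genes 14 had a naive boundary peak and 2 were kept, Cebpa and Cd68 (14.3%, interval 4.01 to 39.9). By group, 1 of 3 was kept in the strongest, 1 of 3 in the middle one and 0 of 8 in the weakest. The lost ones included genes with high naive summits, namely Lgals3, the galectin-3 gene, with 32 tags, Cd14, a co-receptor for lipopolysaccharide, with 31, Mertk, a receptor for dying cells, with 24, and Mitf, a lysosomal transcription factor gene, with 22. Spi1, which encodes the macrophage master regulator PU.1, had 14 naive tags and no day 30 boundary peak.

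Markers of other cell types were nearly absent from both lists. Epithelial and KP tumour cell markers (15 genes), endothelial and fibroblast markers (11) and B cell markers (7) had 0 boundary peaks in either. Of 12 T and NK cell markers, Cd3d alone had a naive peak (12 tags), with none at day 30. Of 11 neutrophil markers, S100a8 alone had a peak, with 13 naive and 12 day 30 tags. Of 15 markers of monocyte-derived and interstitial macrophages, Klf2 was kept (35 to 20 tags) and Maf and Itgam were lost. By its boundary peaks the day 30 list carried 2 of 30 alveolar macrophage markers and 0 of 15 epithelial or tumour markers. Over all 21887 coding genes, 2804 had a day 30 boundary peak and 7594 a naive one. Low counts in short lists therefore say little about which cells were present. The contribution of other cells to the result was not tested further.

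Chaperone genes had the highest kept share of the lists with 5 or more naive genes. Of 23 with a naive boundary peak 19 were kept (82.6%, interval 62.9 to 93.0), and the share was 12 of 13 in the strongest group and 6 of 7 in the middle one. Hspa8, the constitutive cytosolic Hsp70, went from 47 to 31 tags. Tcp1, a subunit of the cytosolic chaperonin, went from 48 to 20 tags. The other chaperonin subunits Cct2, Cct3, Cct4, Cct5 and Cct7 were kept as well, and Cct8 was lost with 22 naive tags. Hsp90aa1, an inducible Hsp90, had more raw tags at day 30 than in the naive list, 23 against 19, and its rank was 198 at day 30 and 4165 in the naive list. Its enrichment was still lower at day 30, 14.0 against 24.2. Hspd1 and Hspe1, the mitochondrial Hsp60 and Hsp10, share 1 promoter and 1 peak, with 29 and 17 tags. The co-chaperone gene Bag3 (27 naive tags), Hsp90ab1 (17) and the stress-inducible Hspa1a (13) were lost.

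Circadian clock and early response genes also lay above the share of all genes. Boundary peaks stood at 11 clock genes in the naive list, and 8 of these were kept (72.7%, interval 43.4 to 90.3). By group, 3 of 4 were kept in the strongest, 3 of 4 in the middle one and 2 of 3 in the weakest. The repressors Cry1, Cry2, Per1 and Per2 had 37, 31, 35 and 26 naive tags and 28, 15, 23 and 19 at day 30. Nr1d2, which encodes REV-ERB beta, went from 39 to 18, while Per3, Dbp and Tef were lost with 23, 14 and 18 naive tags. Of 20 AP-1 and early response genes 11 were kept (55.0%, interval 34.2 to 74.2). These were all 5 of the strongest group, 4 of 8 of the middle one and 2 of 7 of the weakest. Jun went from 52 to 25 tags, Klf10 from 44 to 25, Ier2 from 38 to 19, Fos from 36 to 18 and Junb from 38 to 24. Lost members were Egr1 with 31 naive tags, Zfp36, which destabilises inflammatory transcripts, with 28, Fosl2 with 27, Klf4 with 23 and Nr4a2 with 21. Bhlhe40 counts in both the clock list and the alveolar macrophage list.

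**Figure D3:**
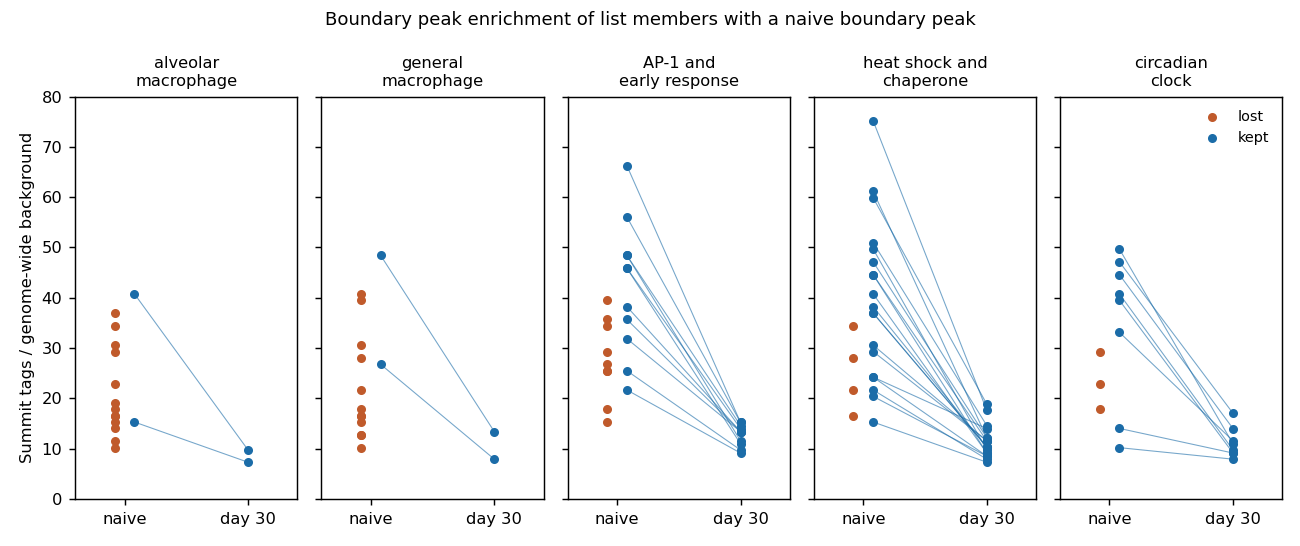
Boundary peak enrichment (summit tags over the genome-wide background) of every gene with a naive boundary peak in 5 lists, 1 panel per list, naive at left and day 30 at right, with lines joining kept genes and separate marks for lost ones. Kept genes fall in every panel. The chaperone panel has 19 joined genes of 23, and the alveolar macrophage panel has 2 of 15.

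Immune signalling genes were kept in part. The intervals of the inflammatory, interferon, MHC class II, TGF-beta and checkpoint lists all held the 36.5% of all genes. In the strongest group these lists kept 5 of 6, 2 of 3, 3 of 4, 3 of 4 and 1 of 3 in that order. Over all genes 70.4% of that group were kept. Among inflammatory and NF-kB genes 8 of 19 were kept (42.1%). They were Tlr4 (33 to 17 tags), Tlr2 (29 to 20), Myd88 (40 to 26), Relb (33 to 24), Rel (25 to 19), and the inhibitors Nfkbia (30 to 20), Nfkbib (23 to 15) and Tnfaip3 (29 to 21). The cytokine and chemokine genes of the list with a naive peak, Cxcl2, Tnf, Ccl2, Ccl3, Ccl4 and Il12b, were all lost, with 27, 16, 11, 9, 9 and 9 naive tags, and 5 of these 6 stood in the weakest group. Regulators were lost as well, namely Nfkbie with 23, Nfkb1 with 18 and Rela with 16. Of 10 interferon response genes 2 were kept, the receptor chains Ifngr1 (55 to 25) and Ifnar1 (25 to 18). Their partner chains Ifngr2 and Ifnar2 were lost with 17 and 14 naive tags, and the transcription factor genes Stat2, Irf1 and Irf9 were among those lost, with 27, 16 and 13. Of 9 MHC class II genes 4 were kept. Nfya (34 to 18), Nfyb (37 to 15) and Rfxap (31 to 19) encode regulators, and H2-DMa, which helps to load peptide, had 18 naive and 23 day 30 tags. As the day 30 list was 2.1 times as deep, the enrichment at H2-DMa was still lower at day 30. H2-Ab1, a chain of the presenting molecule, was lost with 9 naive tags, and so were the regulators Creb1 with 28 and Rfxank with 19. Among 14 TGF-beta and matrix genes 3 were kept, the receptor Tgfbr1 (38 to 18), Smad2 (35 to 20) and the repressor Skil (39 to 23). The related repressor Ski was lost from 48 naive tags, and Tgif1 from 28. Of 7 checkpoint and costimulation genes, Nectin2 and Icosl were kept, and Lgals9, Havcr2, Socs1, Lilrb4a and Cd274 (PD-L1) were lost with 26, 22, 20, 11 and 6 tags.

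Lipid and glycolysis genes had lower shares than all genes, though both intervals held the 36.5% of all genes. Lysosomal genes lay near that share. Of 17 lipid and cholesterol genes 5 were kept (29.4%, interval 13.3 to 53.1), all from the 8 of the strongest group. Among them were Hmgcs1 of the mevalonate pathway (59 to 25 tags), Npc2 (43 to 16), Acsl1 (35 to 21) and Sqle (26 to 13). Lost were Npc1, Lipa, Acly, Srebf2, Abca1, which exports cholesterol, and the receptors for oxysterols Nr1h2 and Nr1h3. The 12 lost genes of this list had 14 to 27 naive tags. Of 16 glycolysis and hypoxia genes 3 were kept (18.8%, interval 6.59 to 43.0): Pfkp (32 to 12), Pkm (26 to 18) and Pdk1 (20 to 15). Hk2 was lost with 28 naive tags, Arnt with 24, Gapdh with 23 and Eno1 with 19. Of 21 lysosomal genes 8 were kept (38.1%), with the protease gene Ctsc (50 to 20) the highest, and Ctsd, Ctsb, Tfeb and Tfe3 were lost with 17, 12, 15 and 12 naive tags.

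Basic cell machinery ranged around the share of all genes. Translation factor genes were kept in 25 of 47 cases (53.2%, interval 39.2 to 66.7), with Eif2ak3, a sensor of endoplasmic reticulum stress, at 56 and 25 tags and the initiation factor Eif3f at 53 and 28. Rab GTPase genes were kept in 17 of 37 (45.9%), led by Rab5a (53 to 31), and splicing factor genes in 15 of 33 (45.5%), with 9 of 9 in the strongest group, among them Sf1 and Hnrnpc, and 4 of 15 in the middle one. Chromatin modifier genes were kept in 10 of 22 (45.5%). Housekeeping genes were kept in 8 of 19 (42.1%), with B2m, the light chain of MHC class I, at 38 and 15 tags, and Gapdh, Hprt and Pgk1 lost from 23, 19 and 17 naive tags. Respiratory chain genes (21 of 56), mitochondrial ribosomal protein genes (18 of 51), cytosolic ribosomal protein genes (21 of 61) and cell cycle genes (6 of 18) lay between 33.3% and 37.5%. The proteasome list kept 7 of 26 and gained Psma3 and Psmb5, the cytosolic ribosomal list gained Rpl9, and the zinc finger list below gained Zfp526. Replication-dependent histone genes kept 14 of 45 (31.1%), partly through shared peaks, as H2ac8 and H2bc8 have 1 between them. Numbered zinc finger genes were kept in 36 of 193 cases (18.7%, interval 13.8 to 24.7), also lower than all genes within the strongest group, 26 of 60 against 70.4%. Zfp654 (84 to 30 tags) and Zfp317 (55 to 29) were kept, and Zfp939 and Zfp983 were lost from 38 and 37 naive tags. Of the 25 lists with 5 or more naive genes 12 had a higher share than all genes, and 20 stayed on their side of it in every setting in which they held 5 or more naive genes. Cutting the lists to equal length left 17 of the 25 with that many, so alveolar macrophage, MHC class II, interferon, TGF-beta, checkpoint, glycolysis, clock and housekeeping genes were not compared in equal lists. Those that changed side were cell cycle, cytosolic ribosomal, mitochondrial ribosomal, proteasome and respiratory chain genes.

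**Figure D4:**
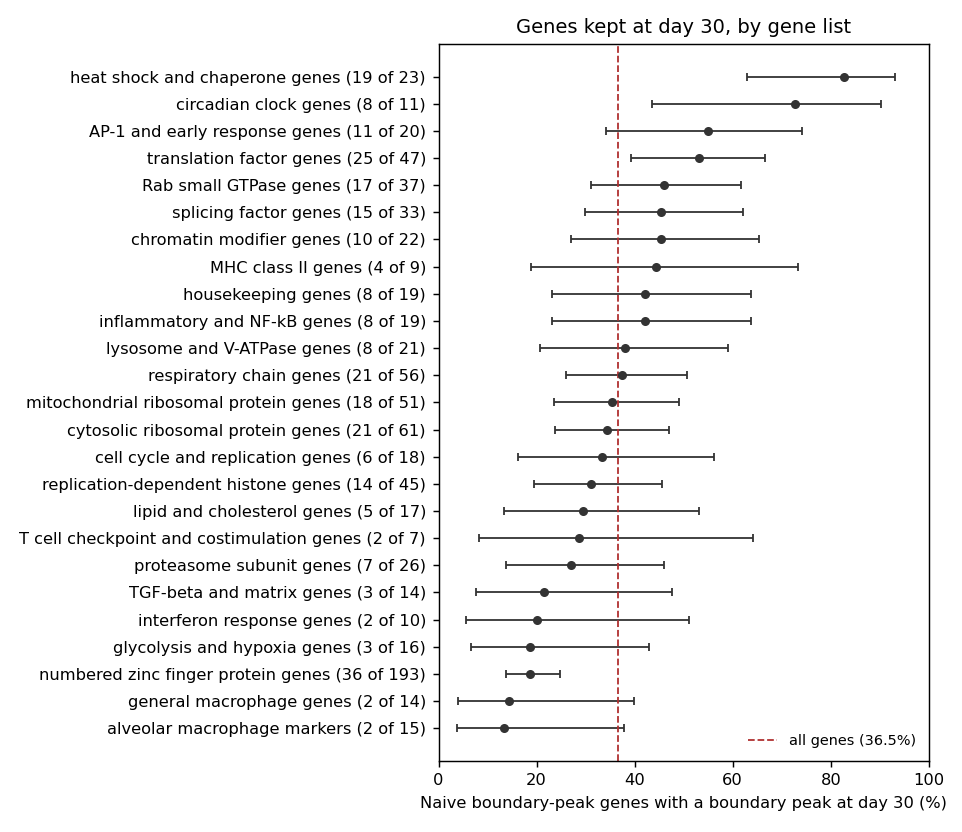
Percent of naive boundary-peak genes that had one at day 30, for each gene list with 5 or more such genes, with 95% Wilson intervals as bars and a vertical line at the 36.5% of all genes. Chaperone (82.6%) and clock genes (72.7%) are at the top, and general macrophage (14.3%) and alveolar macrophage genes (13.3%) at the bottom.

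Kept starts had more CpG than lost ones, within groups of like strength too. It was measured as the observed over expected number of CG in the 300-base window from 250 bases before to 50 after each start that RefSeq lists, with 1 window for each of 17492 coding genes. The median ratio was 0.588 over all of them, 0.848 at kept starts, 0.792 at lost starts and 0.315 at starts with no peak in either list. Starts with a naive peak were kept in 23 of 183 cases (12.6%, interval 8.52 to 18.2) at a ratio under 0.25, 77 of 470 (16.4%) between 0.25 and 0.5, 633 of 1798 (35.2%) between 0.5 and 0.75 and 1701 of 4093 (41.6%, interval 40.1 to 43.1) over 0.75. Strength rose with the ratio, from a median of 14 naive tags in the first of these classes to 20 in the last. In the middle of 3 groups by strength, where medians were 19, 18, 19 and 19 tags, 11.3%, 16.8%, 26.1% and 36.5% were kept in the same order. In the strongest group 58 of 129 starts with a ratio up to 0.5 were kept (45.0%, interval 36.6 to 53.6) against 1065 of 1431 over 0.75 (74.4%, interval 72.1 to 76.6). Mappability and base composition of the reads were not measured here.

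**Figure D5:**
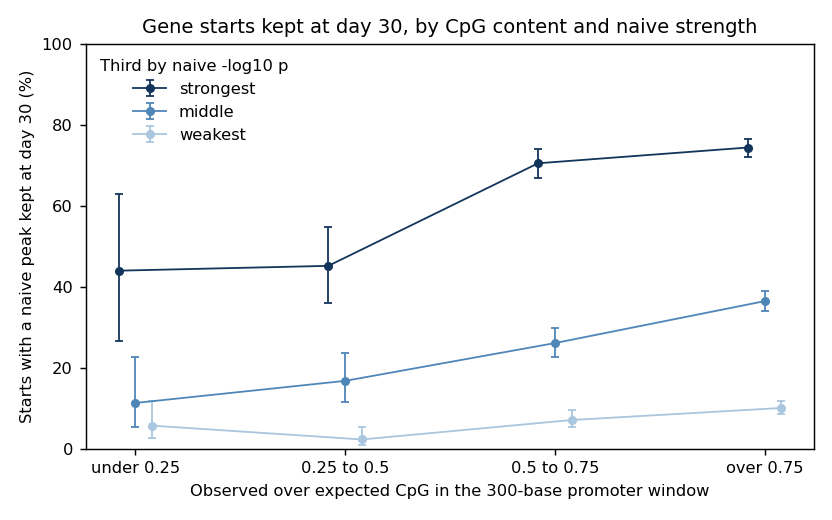
Percent of gene starts with a naive peak that were kept at day 30, by class of observed over expected CpG in the promoter window, with 1 line for each of 3 equal groups by naive −log10 p and 95% Wilson intervals as bars. Shares in the strongest group are 44.0% and 45.2% in the first 2 classes and 70.5% and 74.4% in the others, and in the middle group they go from 11.3% to 36.5%.

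The gene lists differed in this feature. Among the members with a naive boundary peak and a listed start, the median ratio was 0.259 for alveolar macrophage markers, with 7 of 9 under 0.5, and 0.530 for general macrophage genes, with 5 of 10 under 0.5. It was 0.878 for chaperone genes, with 0 of 17 under 0.5, and 0.806 for clock genes, with 0 of 9. Zinc finger genes had 0.656, with 43 of 171 under 0.5. Several lists had a high ratio and a share below the 36.5% of all genes. Glycolysis and hypoxia genes had 0.772, with 0 of 15 under 0.5, yet 18.8% were kept (interval 6.59 to 43.0). TGF-beta genes had 0.885 with 21.4% kept, and interferon genes 0.787 with 2 of 10. Proteasome genes had 0.796 with 26.9%, and cell cycle genes 0.947 with 33.3%. Each of these intervals held the 36.5%. Splicing, chromatin modifier and translation factor genes, with 0.967, 0.917 and 0.863, lay above it at 45.5%, 45.5% and 53.2%. Across lists a high ratio and a high kept share thus did not always go together. The printed promoters of Cd68 and Cebpb are single genes of that kind.

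Short motifs were counted on both strands of the same windows, as letters only. The GC box GGGCGG was found in 47.0% of all windows, 75.9% of kept starts and 68.5% of lost ones. By strength, it was in 78.3% and 69.8% in the strongest group, 71.1% and 70.5% in the middle and 72.9% and 66.7% in the weakest. It contains a CG, and so does the ETS motif CCGGAA, so both move with CpG content. CCGGAA was in 19.4% of all windows, 36.0% of kept and 33.0% of lost starts. CCAAT was in 39.2% of all windows, 50.0% of kept and 40.2% of lost starts. Within the strongest group, however, it was in 56.7% and 55.8%, within the middle in 40.6% and 42.6% and within the weakest in 28.2% and 33.7%. The AP-1 motif TGANTCA was in 7.03% of all windows, 4.19% of kept and 3.94% of lost starts, and the PU.1 core GAGGAA in 27.5%, 25.7% and 25.8%. Of the windows of the genes printed above, those of the kept Hsp90b1, Cry1 and Cd68 hold a GC box and a CCAAT, that of the lost Ear2 a CCAAT and that of the lost Cebpb a GC box, and those of Cebpa, Fcgr1 and Lyz2 neither. A match is not a bound site.

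At the ends of the comparison stood single genes. The strongest naive boundary peaks with no overlapping day 30 peak lay at Grhl1 (chr12:24571942-24572428, 53 tags, rank 110 of the naive list), Fggy (45 tags), Ell2, an elongation factor gene (56), Gm45935 (49), Vrk2 (47), Arl14ep (44), Ski (48), Rnf20, a ubiquitin ligase gene for histone H2B (45), Spring1 (44) and the mitotic kinase gene Ttk (39). No naive peak over 56 tags was without a day 30 partner. The boundary peaks with the best joint rank lay at Pja2 (82 and 42 tags, naive rank 6 and day 30 rank 13), Mon1b (79 and 45), Dnpep (65 and 40), Evi5l (67 and 35) and Tasp1 (64 and 30). They were followed by Sp1, the factor that binds GC boxes (76 and 38), Suco (72 and 34), Map3k3 (58 and 32), Mad2l1 (67 and 31) and Opn3 (67 and 37).

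Ranks shifted most at a few places. Among peaks in both equal lists, Pip4p1 rose from rank 3338 to 273 with 24 and 23 tags, and Ostc, a subunit of the oligosaccharyltransferase complex, from 3332 to 341 with 22 in both. Dnajc13, Spty2d1 and Scaf8 followed with 24, 21 and 27 naive and 24, 23 and 24 day 30 tags. Enrichment was lower at day 30 at each of these places, such as 28.0 naive and 13.4 at day 30 for Ostc. Asf1a, a histone chaperone gene, fell from rank 67 to 3127 with 55 and 13 tags. Med30, Mms22l and Zfp51 fell from 40, 49 and 45 tags to 11, 12 and 12, and Marchf3 from 50 to 12. Day 30 boundary peaks high in that list and outside the shortened naive one lay at Ccdc93 (rank 88, 30 tags), Cox20 (27), Bach1, a repressor of heme and oxidative stress genes (24, day 30 rank 150, naive rank 7068 with 18 tags), Hsp90aa1, Kri1, Gm20783, Mpc1, Gpbp1l1 and Hnrnpa2b1. Their enrichment was lower at day 30 too, with 14.6 against 22.9 at Bach1.

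Of the 117 day 30 peaks without a naive partner, 62 lay at a gene boundary (53.0%, interval 44.0 to 61.8), below the 76.0% of the whole day 30 list (interval 74.5 to 77.4), 42 in gene bodies and 13 between genes. At boundaries, 2 of the 3 of highest −log10 p lay by other gene models, with Gm5737 (27 tags) and Esp38 (154 tags over a high local background) as the nearest coding genes. Those of highest −log10 p within 1000 bp of a protein-coding gene were LOC100504180 (23 tags), Scand1 (18), Pgpep1 (21), Map2k2, a kinase of the ERK pathway (17), Tor1aip2 (19), Vps26a (18), the proton pump subunit gene Atp6v1a (18), 2010109A12Rik (17), Dip2b (16) and the proteasome subunit gene Psmb5 (15). Those at Map2k2, Tor1aip2, Vps26a, Atp6v1a and 2010109A12Rik lay 71 to 923 bp from a naive peak, and Atp6v1a counts as a kept gene because of another naive boundary peak with 19 tags. Summits of 20 tags or more were found in 10 of the 117. Of the 117, 44 (37.6%, interval 29.4 to 46.6) were also in the day 15 list, against 3155 of all 3352 day 30 peaks (94.1%). The 35 gained genes rested on 30 peaks. In 3 of them, Rgs17 (39 tags), 9430038I01Rik and Prr14 (26 each), the day 30 peak overlapped a naive peak that lay beyond 1000 bp of the gene, so those 3 places were called in both lists.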

How the data were processed

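The data are ATAC-seq peaks of sorted mouse macrophages, with 1 list a group. Bowtie2 2.3.4.1, MACS2 2.1.1 and the mm10 build are named in the submitters' processing notes, and settings, read filters and any transposase shift are not given in the sources used here. Since the deposited lists have no headers, the meaning of each column was taken from its values. They hold a score, a ratio (summit fold over the local background), −log10 values of p and q, and the summit offset. Scores, folds and −log10 values are the authors' own and served to rank, filter and describe peaks.

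Summit tags and background were recovered from the deposited fold and −log10 p, taken as tags plus 1 over background plus 1 and as the upper Poisson tail. Every peak returned its p within 0.001. The lowest background of a list gave its depth, for tags extended to 200 bp in 10 kb windows. These tags are those of the peak caller and not reads. The recovery was tested on simulated data. Overlap meant at least 1 bp. A class or gene used a distance of 1000 bp from the ends of 49980 RefSeq genes (GRCm38.p6), 21887 of them protein-coding. Starts were listed for 17492 of these. Summit distances and CpG used those starts.

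The members, the 31 gene lists (1381 entries, 1361 genes matched, with Trac, Mx1 and Mx2 unmatched) and the tests were chosen with earlier results of these data known. Per list, up to 3 kept and 3 lost genes of highest naive −log10 p were to be named, and gained ones where 3 or fewer. Over all genes, the 10 leading boundary peaks of each kind and the 5 largest rank rises and falls were named. A few of the genes so chosen are not reported here. Further members, the genes with many peaks and chromosome X were chosen after their values were seen. Intervals are 95% Wilson intervals. Python 3.11.15, pandas 2.3.3 and scipy 1.17.1 were used. The alternatives were other overlap rules, boundary distances, ranking by fold, a stricter threshold and equal list lengths. Strength by summit tags and the removal of peaks with over 5 tags of local background were added after seeing the data.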

Additional observations from a re-analysis of the deposited data

How the results depend on the processing

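No paired analysis was possible because each group had 1 peak list, and for the same reason leaving out each replicate could not be run. Of the alternatives for the main results, 34 values moved by less than their counting interval or 1.5 times, and 13 moved further. Shares and counts cannot change sign, so a reversal was possible only for the class difference and the rank correlation. Both stayed positive. The share of day 30 peaks found in the naive list was 94.9% with an overlap of at least 50% of either peak and 94.7% with the summit inside the other peak, where the share of naive peaks was 19.7%. In equal lists it was 55.7% with ranking by fold and 52.4% with the top 1000 of each list. Boundary peaks were kept in 32.8% of cases with a distance of 500 bp and 29.3% with 2500 bp. Equal lists gave 67.9% of genes kept, 897 lost and 905 gained, against 4825 lost and 35 gained in the full lists. Ranking by fold gave 63.7% of genes kept in equal lists and a rank correlation of 0.332. With strength by summit tags, a choice made after seeing the data, 76.7% of starts with a CpG ratio over 0.75 were kept in the strongest group. For the single gene lists 102 values stayed and 15 moved, and 5 lists crossed the share of all genes in some setting, such as proteasome genes with 7 of 26 kept in the full and 5 of 5 in the equal lists. Depth was higher and enrichment lower at day 30, and the lists do not hold the signal below the calling threshold.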

Other observations

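Inside genes or between them, and away from listed starts, the naive peaks of highest −log10 p without a day 30 peak included 1 that lay 3300 bp from H2-DMa, a gene of class II peptide loading (chr17:34135354-34135801, 32 tags, rank 578), while the boundary peak of H2-DMa itself was kept. Others had Tstd3 (36 tags), Tnni3k (46) and Gask1b (34) as the nearest coding gene. The kept ones of highest −log10 p had Lrrc4c, which lay far away (122 tags, naive rank 2), and Pex2 (92 tags, rank 3) as the nearest coding gene. These 2 stood over local backgrounds of 8.94 and 5 tags. Further kept ones had Uggt2 (55 tags), Zfp446 (54) and Pcmtd1 (61) as the nearest coding gene. The day 30 peaks of this kind without a naive partner were led by 1 nearest to Sp140, a chromatin reader gene of leukocytes (chr1:85591013-85591657, 35 tags). It stood over a high local background of 6.62 tags, against 1.64 genome-wide, with a fold of 4.72, and lay 1153 bp from a naive peak. Places nearest to Nid1 (18), Tra2a (18) and Fam53b (19) followed.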
